A study of Mus musculus with 2 samples.

Results

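The genes described here are 51 mouse genes that encode the DNA replication machinery and the factors that take a cell from G1 into S phase. They were chosen by name and found on the arrays through the RefSeq accession that each probe carries. Of the 51 genes, 49 had at least 1 such probe, out of 18434 named genes on the arrays, and all 49 were well above background on both arrays. Rpa1 and Rrm2 had no probe with an accession that could be named, and they have no value below. RNA came from CD4 T cells of the spleen of wild-type C57BL/6 mice, isolated magnetically to a purity above 98% and cultured in 2 conditions with 1 single-colour array for each. In the Th9+IFNgamma condition the cells received IL-4 (3 ng/ml), TGFbeta (3 ng/ml) and IFNgamma (10 ng/ml). In the Th9 condition they received IL-4 (10 ng/ml), TGFbeta (3 ng/ml) and a monoclonal antibody against IFNgamma (1 µg/ml). Both cultures were activated through the T cell receptor and CD28 for 2 days and kept for 3 further days, so that the cells were harvested on day 5. Both arrays lay on 1 slide and were scanned together. The labels do not give the number of mice behind a culture. IFNgamma, the IL-4 dose and the antibody differ together between the cultures, and their parts in any difference cannot be told apart.

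Before a cell copies its genome, the origin recognition complex, Cdc6 and Cdt1 load the ring of MCM proteins onto origins. Cdc7 with Dbf4 and the cyclin E kinase then activate the rings with the help of Cdc45 and the GINS complex. Polymerases, the sliding clamp PCNA and the enzymes that make deoxynucleotides carry out the synthesis, and transcription of most of these genes is driven by E2F factors. Activated T cells divide rapidly in culture, and these genes are therefore strongly expressed in them.

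Values are scaled signals, that is, the processed brightness of a probe after the arrays were scaled to share 1 value of their 75th percentile. A scaled signal compares 1 gene between the arrays and says nothing of one gene's level against another's. A single array for each condition allows no test, and differences are described by size against limits of 1.5-fold and 2-fold. As a yardstick, single spots of 65 probes that are printed 10 times and have signals of at least 1000 scattered around the mean log2 difference of their probe with an SD of 0.05. That SD was 0.19 for 81 such probes below 1000. The extraction software's own error model puts the error of a member's log2 difference at 0.20 to 0.21. Neither figure covers differences that arise between animals, between cultures or in labelling. Over all arrayed genes, well above background were 60.6% of probes in Th9+IFNgamma and 59.9% in Th9. All 8 CD4 T cell markers that were looked up were above background on both arrays, and their log2 differences ran from -0.63 for Cd2 through 0.00 for Cd3d to 0.65 for Cd5, with 1 of 8 at least 1.5-fold higher and 1 lower. Of 20 markers of other cell types, 13 were above background on both arrays, with signals of 11.6 to 1337 in Th9+IFNgamma and 15.1 to 1188 in Th9, and summed signals of 2730 in Th9+IFNgamma and 3049 in Th9, most of which came from Cd8a and Cd79b. At least 1.5-fold higher were 2 of the 13, Klf1 (87.1 in Th9+IFNgamma, 30.1 in Th9) and Hba-a1 (119 in Th9+IFNgamma, 53.5 in Th9), and 3 were lower. The largest of these differences was that of the macrophage marker Adgre1 (25.8 in Th9+IFNgamma, 186 in Th9), and the others were Epor (73.3 in Th9+IFNgamma, 238 in Th9) and Klrb1c. Adgre1 was read by 1 of its 2 probes. The macrophage and monocyte markers Csf1r and Cd14 did not follow it, with log2 differences of -0.01 and 0.31. Pax5, Lyz2, Siglech and Ncr1 were not well above the background of either array. The part of other cells in the differences below was not tested.

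Replication and G1/S genes had higher signals in Th9+IFNgamma nearly throughout, mostly by less than 2-fold. Of 49 measured genes, 46 were higher by some amount, where 49.3% of all 12273 named genes measured were higher. The 1.5-fold limit was passed upwards by 16 members and downwards by none, against 12.6% upwards and 15.6% downwards of all genes. The members at least 2-fold higher were Tk1, Tyms and Pola1, so 3 genes, where 5.12% of all genes reached that size in this direction and 7.46% in the other. With scaling by each array's median, 7 members were that much higher. The median log2 difference of the members was 0.45 (quartiles 0.24 and 0.70), and that of all genes was -0.01 (quartiles -0.36 and 0.31). In bulk RNA, more cells of a kind and more RNA per cell cannot be told apart. The members' probes are bright, with a median at percentile 82.5 of the probes of all genes, and 41 of them had signals of at least 1000 on both arrays. Among the 5690 genes that bright, 10.5% passed the 1.5-fold limit upwards and the median was 0.06, whereas 14 of the 41 bright members did, and their median was 0.45. This set of bright genes was drawn up after the values were seen. The log2 difference exceeded 2 times the software's error in 27 members, 26 of them higher. The share of all genes beyond that size was not computed, so this count has no background beside it. The 49 genes lie on 14 chromosomes.

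**Figure D1:**
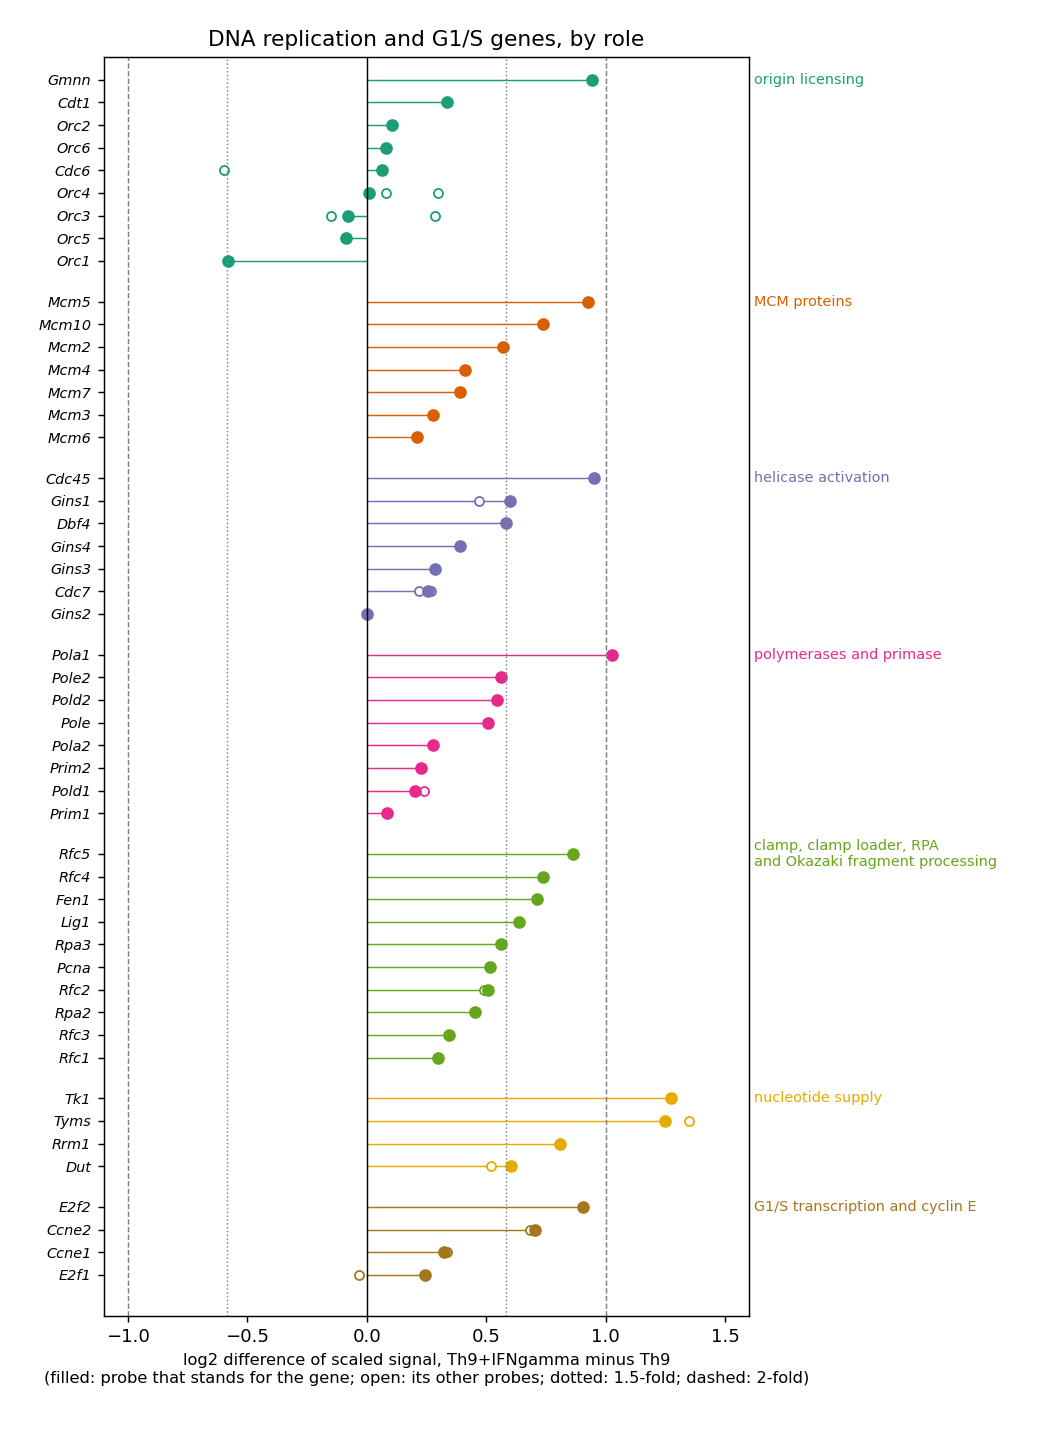
Log2 difference of the scaled signal (Th9+IFNgamma minus Th9) of 49 replication and G1/S genes, grouped by role, with 1 filled point for the probe that stands for a gene and open points for its other probes. Filled points lie right of 0 except for Orc1, Orc3 and Orc5, with Tk1 (1.28) and Tyms (1.25) farthest, and origin licensing genes lie on both sides (-0.58 to 0.95).

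**Figure D2:**
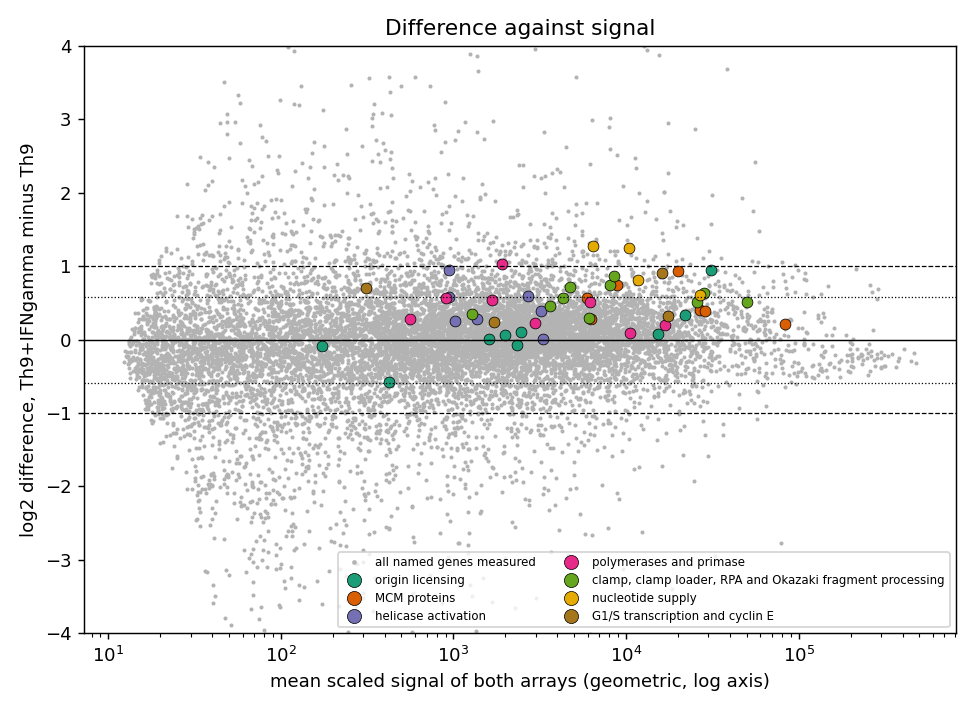
Log2 difference (Th9+IFNgamma minus Th9) against the mean scaled signal on a log axis, for all 12273 named genes measured (grey) and the 49 members (coloured by role). Most members sit in the bright part and above 0, and 48 genes beyond 4 on the log2 scale are outside the plotted range.

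The genes for nucleotide supply had the highest median among the groups. All 4 that were measured passed the 1.5-fold limit upwards, and their median log2 difference was 1.03. Over all genes, 12.6% passed that limit upwards and 5.12% were at least 2-fold higher. Tk1, thymidine kinase of the salvage route, had a scaled signal of 9952 in Th9+IFNgamma and 4112 in Th9, a 2.42-fold higher signal and the largest difference among the members. Tyms, thymidylate synthase, which makes dTMP from dUMP, was read by 2 probes. Its brighter probe gave 16035 in Th9+IFNgamma against 6748 in Th9 (2.38-fold higher), and its other probe 11015 in Th9+IFNgamma against 4322 in Th9, so that both probes exceeded 2-fold. Rrm1, the large subunit of ribonucleotide reductase, had 15616 in Th9+IFNgamma and 8918 in Th9, which is 1.75-fold higher. Dut, the dUTPase that keeps uracil out of DNA and supplies dUMP, had 33010 in Th9+IFNgamma against 21725 in Th9, 1.52-fold higher. Its second probe had a log2 difference of 0.52, below the 1.5-fold limit. The enzymes on both routes to dTMP, Tyms and Tk1, thus had the 2 largest differences of all 49 members.

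Among origin licensing genes, 1 of 9 passed the 1.5-fold limit upwards, where 12.6% of all genes did, and the median log2 difference of the 9 was 0.07. Gmnn encodes geminin, which binds Cdt1 and blocks licensing after S phase has begun, and it had 42985 in Th9+IFNgamma against 22323 in Th9 (1.93-fold higher). Cdt1, the geminin target and MCM loader, had 24620 in Th9+IFNgamma against 19527 in Th9 (1.26-fold higher). The origin recognition genes Orc2, Orc3, Orc4, Orc5 and Orc6 lay between -0.09 and 0.10 on the log2 scale by the probe that stands for each gene, inside the software's error. A dimmer probe of Orc4, at 302 in Th9+IFNgamma and 246 in Th9, gave 0.30, and its faintest probe gave 0.08. Orc6, the smallest subunit of the complex, had 15704 in Th9+IFNgamma and 14834 in Th9. Orc1, the subunit whose level is known to follow E2F and the cell cycle in mammals, was the member with the lowest difference, at 344 in Th9+IFNgamma and 515 in Th9. Its log2 difference of -0.58 fell just short of the 1.5-fold limit, and it passed that limit when the 75th percentile was taken over detected probes or when a loess curve was removed. Cdc6, the ATPase that joins the recognition complex to load MCM proteins, was read by 2 probes that disagreed. The brighter gave 2028 in Th9+IFNgamma and 1938 in Th9 (log2 0.07), and the dimmer 759 in Th9+IFNgamma against 1148 in Th9 (log2 -0.60), so that no direction can be given for Cdc6, which counts as higher above by its brighter probe.

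All 7 MCM genes were higher in Th9+IFNgamma, by 0.21 to 0.93 on the log2 scale, where 49.3% of all genes were higher. Mcm5 stood highest among them, with 27537 in Th9+IFNgamma and 14470 in Th9 (1.90-fold higher). Mcm10, which is not part of the ring and helps to activate it, had 11528 in Th9+IFNgamma against 6903 in Th9 (1.67-fold higher). These 2 genes passed the 1.5-fold limit, which 12.6% of all genes passed upwards. Mcm2 lay just below that limit, at 7220 in Th9+IFNgamma and 4863 in Th9 (1.48-fold higher). Mcm4 had 31110 in Th9+IFNgamma against 23420 in Th9 (1.33-fold higher) and Mcm7, a neighbour of Mcm4 in the ring, 33006 in Th9+IFNgamma against 25176 in Th9 (1.31-fold higher). Mcm3 had 6884 in Th9+IFNgamma and 5676 in Th9 (1.21-fold higher). Mcm6 had 89216 in Th9+IFNgamma against 77195 in Th9 (1.16-fold higher), the smallest difference of the family. The 6 ring subunits are used in equal numbers in the helicase, and their differences here ran from 1.16-fold to 1.90-fold, each read by a single probe.

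The genes that turn the loaded rings into active helicases were all at or above 0, where 49.3% of all genes were higher. Cdc45, the factor that joins the rings as they fire, had 1306 in Th9+IFNgamma and 675 in Th9 (1.93-fold higher). The 4 GINS genes, whose products form 1 complex with Cdc45 and the MCM ring, did not have 1 common difference. Gins1 had 3308 in Th9+IFNgamma against 2183 in Th9 (1.52-fold higher) by its brighter probe and a log2 difference of 0.47 by the other. Gins4 was 1.31-fold and Gins3 1.22-fold higher, and Gins2 had 3298 in Th9+IFNgamma and 3293 in Th9, a log2 difference of 0.00. Dbf4, the activating subunit of the Cdc7 kinase, had 1157 in Th9+IFNgamma against 773 in Th9, a log2 difference of 0.58 just under the limit. Cdc7 itself was 1.19-fold higher, at 1113 in Th9+IFNgamma and 933 in Th9, and its 3 probes spanned 0.22 to 0.27.

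Among the polymerase and primase genes all 8 were higher, and 1 of them reached 1.5-fold and also 2-fold. Of all genes, 12.6% reached 1.5-fold and 5.12% reached 2-fold upwards. Pola1, the catalytic subunit of DNA polymerase alpha, which extends the RNA primers, had 2729 in Th9+IFNgamma and 1339 in Th9 (2.04-fold higher). Its partners in the same complex differed less. Pola2 had 614 in Th9+IFNgamma against 507 in Th9 (1.21-fold higher), Prim2 was 1.17-fold higher, and Prim1, the primase catalytic subunit, had 10813 in Th9+IFNgamma and 10205 in Th9 (1.06-fold higher). For polymerase epsilon, the leading-strand enzyme, Pole had 7390 in Th9+IFNgamma against 5199 in Th9 (1.42-fold higher) and Pole2 1097 in Th9+IFNgamma against 744 in Th9 (1.47-fold higher). For polymerase delta, the lagging-strand enzyme, Pold2 had 2015 in Th9+IFNgamma and 1382 in Th9 (1.46-fold higher). Its catalytic subunit gene Pold1 had 18113 in Th9+IFNgamma against 15741 in Th9 (1.15-fold higher), and 2 probes agreed at log2 differences of 0.20 and 0.24.

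Clamp, clamp loader, RPA and Okazaki fragment genes had a median log2 difference of 0.54, with all 10 higher and 4 of them at least 1.5-fold. Over all genes, 49.3% were higher by some amount and 12.6% at least 1.5-fold. Pcna, the sliding clamp, is printed 10 times on each array. Its spots ran from 57664 to 62878 in Th9+IFNgamma (median 60350) and from 39975 to 44674 in Th9 (median 41994), so that the spots of the arrays did not overlap. Its gene value was 1.43-fold higher, and single spots gave log2 differences of 0.44 to 0.65. The spots of an array read the same RNA and are no replicates of a culture. Of the clamp loader, which opens PCNA and places it on DNA, Rfc5 had 11469 in Th9+IFNgamma and 6301 in Th9 (1.82-fold higher) and Rfc4 10362 in Th9+IFNgamma against 6209 in Th9 (1.67-fold higher). Rfc2 was 1.42-fold, Rfc3 1.27-fold and Rfc1, the large subunit, 1.23-fold higher. Fen1, the flap endonuclease that trims Okazaki fragments, had 6080 in Th9+IFNgamma and 3713 in Th9 (1.64-fold higher). Lig1, the ligase that joins them, had 35075 in Th9+IFNgamma against 22571 in Th9 (1.55-fold higher). The single-strand binding genes Rpa3 and Rpa2 were 1.47-fold and 1.37-fold higher.

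**Figure D3:**
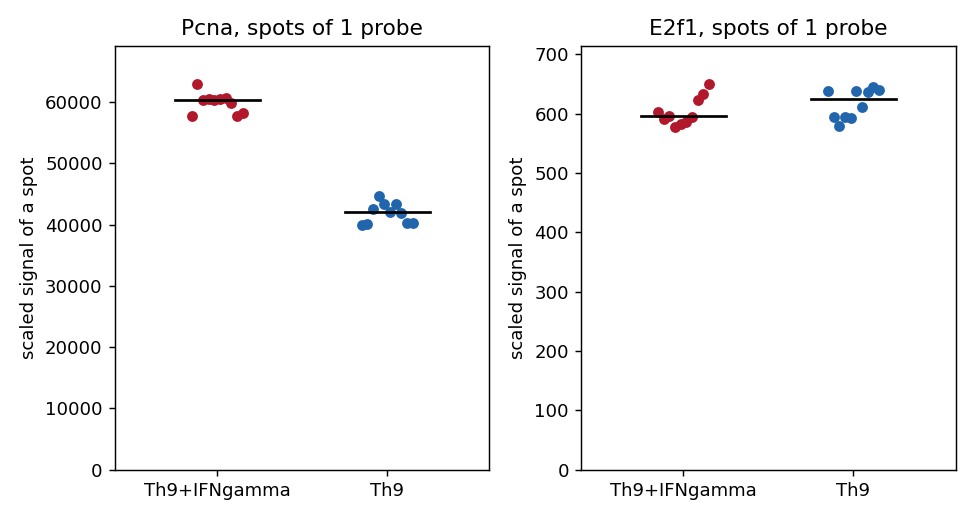
Scaled signal of each of the 10 spots of the Pcna probe (left) and of the E2f1 probe printed 10 times (right), with Th9+IFNgamma left of Th9 in each panel, axes from 0 and a bar at the median. The Pcna spots of the arrays do not overlap (lowest Th9+IFNgamma spot 57664, highest Th9 spot 44674), and the E2f1 spots do. The spots of an array read the same RNA and are no replicates of a culture.

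E2f2 and the cyclin E genes were higher, and E2f1 depended on the probe. E2f2, an activating E2F factor, had 22075 in Th9+IFNgamma and 11772 in Th9 (1.88-fold higher). Ccne2, a cyclin that activates CDK2 at the G1/S transition, had 395 in Th9+IFNgamma against 243 in Th9 (1.63-fold higher), and its 2 probes gave 0.69 and 0.70 on the log2 scale. Ccne1, the other cyclin E gene, had 19622 in Th9+IFNgamma and 15664 in Th9 (1.25-fold higher), with log2 differences of 0.33 and 0.34 by its probes. E2f1 had 1877 in Th9+IFNgamma against 1584 in Th9 (1.18-fold higher) by its brighter probe. Its other probe, printed 10 times, ran from 577 to 649 in Th9+IFNgamma and from 580 to 645 in Th9, with overlapping spots and a mean log2 difference of -0.03.

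Probes of a member agreed in sign about as often as those of genes over the whole array. Of 12 members with several measured probes (27 probes), 9 (75%) had probes of 1 sign, against 77.5% of the 4415 genes with several probes over the whole array. The exceptions were Cdc6, E2f1 and Orc3. For Orc3 the brighter 2 probes gave -0.08 and -0.15 and a dim probe, at 50.3 in Th9+IFNgamma and 41.3 in Th9, gave 0.28. The median spread between the probes of a member was 0.09 on the log2 scale, and 0.17 over all genes with several probes. Probes of a gene read the same RNA and are no replicates. The other 37 members were read by 1 probe.

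Because many of these genes are known E2F targets and were nearly all higher in Th9+IFNgamma, their promoter windows were searched for E2F-type words. Of the members, 42 had an entry in a RefSeq table of promoters (build GRCm38.p6, 250 bases before to 50 after each annotated start, 300 bases in all). The words searched were TTTCCCGC, TTTCGCGC, TTTGCCGC and TTTGGCGC on both strands, and words on opposite strands may overlap. At least 1 word was found in 15 of the 42 genes (35.7%), against 4.54% of 9867 genes measured on both arrays and 2.61% of all 27025 genes of the table. By windows, the share was 28.8% for the members, 3.78% for genes measured on both arrays and 2.26% for all windows. The CCAAT word was in 57.1% of the member genes and 42.9% of the measured genes, GGGCGG in 78.6% of the member genes and 66.5% of the measured genes, and TTCNNNGAA, a core to which STAT factors bind, in 11.9% of the member genes and 8.47% of the measured genes. In these windows, members with an E2F-type word did not have a larger median difference than members without one. The 15 members with a word had a median log2 difference of 0.33 (-0.58 to 1.03), and the 25 measured members without one in these windows had 0.54 (-0.09 to 1.28). Of those with a word 4 passed the 1.5-fold limit upwards, and of those without one 9 did. A match is a description of the sequence and not a measured binding site. Sites of another sequence or outside these windows were not searched for, so members without a word may still hold one. Whether E2F factors had a part in the differences was not tested.

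The windows below are shown because they span the range of differences among the members with a word, from Pola1 (log2 1.03) through Mcm5 (0.93), E2f2 (0.91) and Mcm6 (0.21) to Orc1 (-0.58). Each is given 5′ to 3′ on the gene's strand, with the E2F-type words in capitals. In Mcm5 and Mcm6 words on opposite strands overlap and form 1 run of capitals.
Pola1, chrX:93632106-93632405, minus strand: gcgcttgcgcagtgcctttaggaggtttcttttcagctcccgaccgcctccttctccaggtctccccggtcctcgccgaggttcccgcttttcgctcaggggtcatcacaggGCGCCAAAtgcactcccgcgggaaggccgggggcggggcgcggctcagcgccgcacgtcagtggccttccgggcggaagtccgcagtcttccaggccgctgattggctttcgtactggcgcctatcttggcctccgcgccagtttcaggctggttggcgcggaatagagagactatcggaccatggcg
Mcm5, chr8:75109259-75109558, plus strand: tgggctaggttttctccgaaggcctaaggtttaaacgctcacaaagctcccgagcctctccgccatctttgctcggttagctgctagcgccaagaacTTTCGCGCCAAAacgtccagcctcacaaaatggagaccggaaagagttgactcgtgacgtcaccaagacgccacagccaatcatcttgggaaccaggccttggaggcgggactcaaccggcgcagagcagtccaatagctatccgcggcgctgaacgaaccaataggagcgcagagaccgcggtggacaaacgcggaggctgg
E2f2, chr4:136172024-136172323, plus strand: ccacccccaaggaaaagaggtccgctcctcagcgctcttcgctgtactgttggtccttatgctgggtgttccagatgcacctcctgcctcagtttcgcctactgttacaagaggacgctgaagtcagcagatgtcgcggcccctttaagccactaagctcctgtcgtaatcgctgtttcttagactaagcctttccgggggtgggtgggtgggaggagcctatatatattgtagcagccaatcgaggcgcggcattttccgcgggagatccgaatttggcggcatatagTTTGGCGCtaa
Mcm6, chr1:128359656-128359955, minus strand: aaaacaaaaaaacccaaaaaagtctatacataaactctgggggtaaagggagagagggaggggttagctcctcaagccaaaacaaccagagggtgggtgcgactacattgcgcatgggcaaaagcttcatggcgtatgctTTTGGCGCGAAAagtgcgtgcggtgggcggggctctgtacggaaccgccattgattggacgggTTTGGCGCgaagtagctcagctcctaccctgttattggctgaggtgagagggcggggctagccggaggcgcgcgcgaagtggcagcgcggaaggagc
Orc1, chr4:108579204-108579503, plus strand: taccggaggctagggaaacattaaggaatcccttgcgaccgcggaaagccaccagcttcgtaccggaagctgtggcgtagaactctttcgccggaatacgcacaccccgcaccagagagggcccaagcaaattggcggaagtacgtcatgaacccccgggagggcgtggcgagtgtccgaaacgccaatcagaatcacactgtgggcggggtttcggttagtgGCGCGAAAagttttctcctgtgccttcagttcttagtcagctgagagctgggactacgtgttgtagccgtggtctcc
Mcm5 and Mcm6, with signals 1.90-fold and 1.16-fold higher in Th9+IFNgamma, both carry such an overlapping run, and Orc1, which was lower, carries a single word 27 bases before its start.

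**Figure D4:**
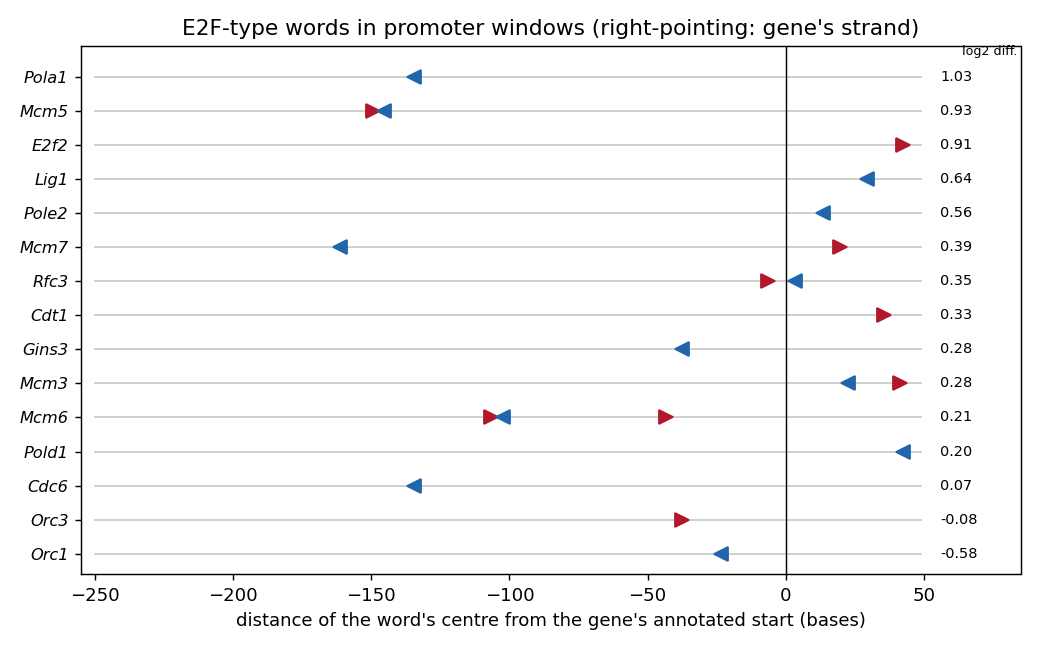
Position of E2F-type words in the promoter windows of the 15 members that hold one, as the distance of a word's centre from the annotated start in bases, with genes ordered by log2 difference (printed at the right) from Pola1 (1.03) to Orc1 (-0.58). Right-pointing markers are words on the gene's strand and left-pointing markers words on the other, and both kinds appear at the top and at the bottom of the order.

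Other genes of the same pathway, 100 in 6 lists, were looked up beside the members. Of the 94 measured on both arrays, 24 passed the 1.5-fold limit upwards in Th9+IFNgamma and 7 downwards, where 12.6% of all genes passed it upwards and 15.6% downwards, and the median log2 difference was 0.28. A further 4 were above background in Th9+IFNgamma only and 0 in Th9 only, and the share of all genes detected on 1 array was not computed. The bounds on their folds ran from 0.92 (Foxo3) to 2.06 (Cdkn2b). Of 29 other fork and origin factors, 9 passed that limit upwards and none downwards (median 0.38). Dna2, a nuclease and helicase that processes long flaps, had 1132 in Th9+IFNgamma and 278 in Th9 (4.07-fold higher, and log2 2.02 and 2.32 by its probes). Top2a, the topoisomerase that untangles replicated DNA, had 8604 in Th9+IFNgamma against 3716 in Th9 (2.32-fold higher). Of 11 genes of chromatin assembly and maintenance methylation, 3 passed it upwards and none downwards (median 0.48). Uhrf1, which brings the maintenance methyltransferase to replicated DNA, had 7479 in Th9+IFNgamma and 5054 in Th9 (log2 0.57).

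Of 17 genes for other steps of nucleotide metabolism, 3 passed the 1.5-fold limit upwards and none downwards (median 0.11, or 0.24 with scaling by the array medians). Of all genes, 12.6% passed it upwards and 15.6% downwards. Cmpk2, a mitochondrial nucleotide kinase known as interferon-induced, had 442 in Th9+IFNgamma and 27.8 in Th9 (15.9-fold higher). Samhd1, a dNTP hydrolase that opposes dNTP supply, had 12462 in Th9+IFNgamma against 8035 in Th9 (1.55-fold higher). Rrm2b, the ribonucleotide reductase subunit used outside S phase, was dim, at 49.96 in Th9+IFNgamma against 74.8 in Th9 (log2 -0.58).

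E2F and pocket protein genes, brakes on division, and cyclins, kinases and phosphatases of G1/S differed in both directions. Their counts stand beside 12.6% of all genes past the 1.5-fold limit upwards and 15.6% downwards. Of 14 E2F, pocket protein and related genes, 6 passed the 1.5-fold limit upwards and 3 downwards (median 0.25, and 0.18 to 0.38 over all settings). Rbl1, which encodes the pocket protein p107 and is itself an E2F target, had 3215 in Th9+IFNgamma and 1396 in Th9 (2.30-fold higher). Rb1, the retinoblastoma protein gene, had 3375 in Th9+IFNgamma against 7590 in Th9 (2.25-fold lower), with a log2 difference of -0.48 by its other probe. Of 12 measured CDK inhibitors and other brakes on division, 1 passed the limit upwards and 4 downwards (median -0.18). That median was -0.05 with scaling by the array medians, and -0.03 without the filter on dim probes, where the median of all genes was -0.12. The filter leaves out Cdkn2a, Cdkn2b and Foxo3, which were above background in Th9+IFNgamma only. Cdkn1a, which encodes the CDK inhibitor p21, had 4625 in Th9+IFNgamma and 9026 in Th9 (1.95-fold lower). Cdkn1c was dim on both arrays, at 34.4 in Th9+IFNgamma against 71.3 in Th9 (2.07-fold lower). Cdkn2c, which encodes the CDK4 and CDK6 inhibitor p18, had 3073 in Th9+IFNgamma against 705 in Th9 (4.36-fold higher). Cdkn1b, which encodes p27, was 1.19-fold higher. Cdkn2b was dim, at 28.1 in Th9+IFNgamma, where it was above background, and 13.6 in Th9, where it was not. The faintest detected signals were 11.1 in Th9+IFNgamma and 12.5 in Th9. The bound on its fold (Th9+IFNgamma over Th9) was 2.06, with 1.34 for Cdkn2a and 0.92 for Foxo3. Of 11 measured cyclins, kinases and phosphatases of G1/S, 2 passed the limit upwards and none downwards (median 0.26, with 0.08 after normexp and 0.55 among signals of at least 1000). Ccnd3 had 31983 in Th9+IFNgamma and 21426 in Th9 (1.49-fold higher), Ccnd2 43842 in Th9+IFNgamma against 46015 in Th9 (log2 -0.07) and Myc 5235 in Th9+IFNgamma against 6459 in Th9 (log2 -0.30).

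**Figure D5:**
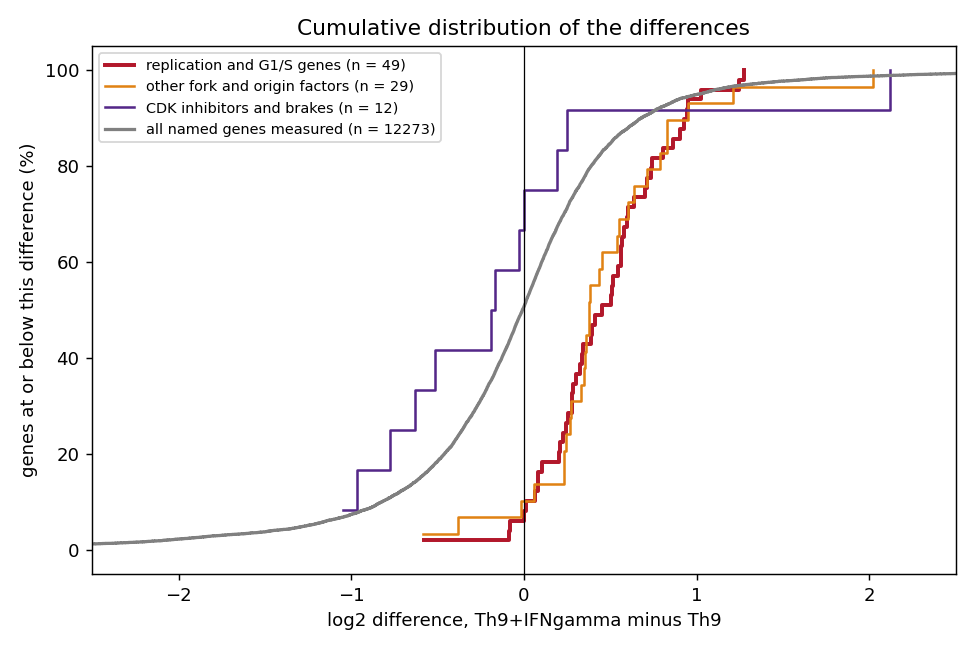
Share of genes (%) at or below a given log2 difference (Th9+IFNgamma minus Th9) for 49 replication and G1/S genes, 29 other fork and origin factors, 12 CDK inhibitors and brakes and all 12273 named genes measured. The member curve (median 0.45) lies near that of the other fork factors (0.38) and right of all genes (-0.01), and the brakes lie to the left for most of the range (-0.18), a placement that does not hold without the filter on dim probes (brakes -0.03, all genes -0.12).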

How the data were processed

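Each culture condition was measured on 1 single-colour Agilent array. Per the file headers, the authors' intensity values come from Agilent Feature Extraction 10.7.3.1 (10.7 in the submitters' processing notes), are background-subtracted and detrended within an array, and were deposited without scaling between arrays. The flags deposited beside the intensities mark, as 0 or 1 per spot, background and outlier calls. The authors' deposited log2 table was matched to the scanner values. Each column is log2 of the median processed signal of a probe minus a constant (SD of the offset 2.48e-07 and 2.21e-07), with column medians of -4.05 for Th9+IFNgamma and -3.93 for Th9, and served as an alternative.

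Log2 signals were averaged over the spots of a probe without control and outlier spots (99 and 71 outliers), and the 75th percentile over non-control spots (655 for Th9+IFNgamma, 586 for Th9) was subtracted. Scaled signals refer to their geometric mean, 619.6. Probes were named by RefSeq accession (27050 of 41171 probes). A gene takes the value of its brightest probe well above background on both arrays. For a gene above background on 1 array, its signal there was divided by what the other array could have shown at most (the reading of the dim probe, or the faintest detected signal if that was larger), which bounds the fold. All members were accounted for, and other pathway genes were named by a rule (at least 2-fold apart, or from a fixed list). Cell type markers, bounded genes and the genes under other observations were named after their values were seen. Members and lists were chosen with earlier results of these data known, and 2 listed markers are not reported here. The choice of a gene's probe and the counts past the fold limits were tested on simulated data. Scaling, naming of probes and the promoter search were not part of that test. Tools were Python 3.11.15, pandas 2.3.3, R 4.3.3 and limma 3.58.1.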

Additional observations from a re-analysis of the deposited data

How the results depend on the processing

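With 1 array per condition, no replicate could be left out and no p-value is given. No paired analysis was possible because each condition has 1 array. The members were rerun under 11 alternatives. The scanner files used hold no mean spot signal, so normexp ran on the median signal, an alternative chosen after seeing the data, as was the minimum of 1000. Members at least 1.5-fold higher numbered 13 to 24 over all settings, and their median log2 difference 0.40 to 0.58. It stayed 0.39 to 0.58 above the median of all genes. Scaling by the median moved all genes by 0.13 and gave 7 members at least 2-fold higher (3 as reported). It also gave 2067 genes higher and 1512 lower by 1.5-fold (57.8% higher, 44.6% as reported). One member was at least 1.5-fold lower, Orc1, with the percentile over detected probes and with loess (1 in each). All settings rework the same 2 arrays, and the share of all genes that keep a sign or stay past the limit was not computed. Of the 41 members measured in all 12 settings, 34 kept 1 sign and 11 were at least 1.5-fold higher throughout, among them Tk1, Tyms, Pola1, Mcm5, Gmnn and E2f2. The other 8 have no value in the setting of at least 1000. Over the remaining 11 settings 7 of these kept 1 sign, and Cdc45 was at least 1.5-fold higher in each. Orc3, Orc4, Orc5, Orc6, Gins2, Prim1, Cdc6 and E2f1 changed sign in at least 1 setting. Over all genes, counts at least 1.5-fold higher and lower were 1541 and 1915, and at least 2-fold 628 and 915. Without a filter on dim probes they were 2468, 3270, 1198 and 1794. With signals of at least 1000 they were 597, 454, 191 and 151. With signals of at least 100, 1097 genes were 1.5-fold and 469 were 2-fold lower, and with normexp 590 were 2-fold lower. The filters change the number of genes counted, and the cause of the normexp value was not tested.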

Other observations

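Some pathway genes beside the members were read differently by their probes. Klf2, a quiescence factor, had a log2 difference of -0.19 by its brighter probe and 2.06 by another, Dctd -0.13 and -1.28, and Ccng1 -0.52 and -0.02. Among the genes that restrain division, Btg1 (19275 in Th9+IFNgamma, 29803 in Th9) and Foxo1 (11052 in Th9+IFNgamma, 18889 in Th9) were lower in Th9+IFNgamma with both probes of 1 sign. E2f7 and E2f8, repressors of the E2F family, had log2 differences of 0.69 and 0.91, and Mybl2, which joins the switch to mitotic transcription, 0.66.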
